A study of Mus musculus with 2 samples.

Results

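MAFK-bound regions in introns close to gene starts were examined in mouse embryonic stem cells. Of the 16836 regions of the optimal list on chromosomes 1 to 19 and X, 3183 were near intronic. Their summit lay in a GENCODE vM21 gene body but in no exon, more than 1 kb from every transcription start site (TSS), at most 20 kb from the nearest protein-coding TSS, and on a base that was not soft-masked as a repeat. The rule used position only, not the signal. All samples were ES-E14 cells, a male mouse embryonic stem cell line of strain 129/Ola, with no treatment named, and chromatin immunoprecipitation with sequencing (ChIP-seq) used an antibody to MAFK. The 2 biological replicates formed 1 group, the labels give both the same biosample, so their spread may be partly technical, and no control library was analysed here. Read depth is unknown because the files hold regions, not reads.

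MAFK is a small MAF protein: a basic leucine zipper factor that lacks a transactivation domain of its own. It binds DNA as a homodimer or in a pair with a CNC protein such as NRF2, NFE2 or BACH1. A pair of MAF proteins reads a palindrome, the T-MARE, whose arms each carry the MAF core TGCTGA. A MAF and CNC pair reads an asymmetric composite element in which a single MAF arm is joined to an AP-1-type arm, as in the antioxidant response element (ARE) of detoxification genes.

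The bases around the summit are shown for 8 of the 10 strongest near intronic regions that overlapped the thresholded lists of both replicates, to give examples of the element at high signal. The other two, at Dym (a composite element, signal 397.6) and Ccbe1 (the MAF core without the ARE core, 348.3), are given by value only. They are followed by a strong region with the MAF core only and a strong region with no exact MAF element, at Kdm2a and Pex5l, and by the strongest at an antioxidant, a heme and a pluripotency gene. Each line gives 30 bases to either side of the summit in GRCm38 (mm10), on the strand in brackets and named by the gene with the nearest protein-coding TSS. Capitals mark the exact palindrome, otherwise the composite element, otherwise a match to the palindrome with up to 2 mismatches.
Gin1, chr1:97768249-97768309 (+): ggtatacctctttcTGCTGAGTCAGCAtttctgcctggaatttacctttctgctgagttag
Kazn, chr4:142171594-142171654 (-): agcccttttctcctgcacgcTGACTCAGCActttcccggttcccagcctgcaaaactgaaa
Plekha3, chr2:76708713-76708773 (+): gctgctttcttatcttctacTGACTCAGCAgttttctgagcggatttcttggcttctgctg
Efcab2, chr1:178463915-178463975 (+): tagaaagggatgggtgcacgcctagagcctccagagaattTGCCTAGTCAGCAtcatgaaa
Rhoh, chr5:65883488-65883548 (+): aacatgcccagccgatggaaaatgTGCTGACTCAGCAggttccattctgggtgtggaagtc
Gpr137c, chr14:45251727-45251787 (+): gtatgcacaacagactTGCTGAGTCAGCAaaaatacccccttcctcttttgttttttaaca
Hmgb4, chr4:128248846-128248906 (-): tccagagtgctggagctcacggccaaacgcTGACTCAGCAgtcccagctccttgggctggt
Fbxo34, chr14:47483267-47483327 (+): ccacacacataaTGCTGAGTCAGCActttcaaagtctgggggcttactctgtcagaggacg
Kdm2a, chr19:4349615-4349675 (+): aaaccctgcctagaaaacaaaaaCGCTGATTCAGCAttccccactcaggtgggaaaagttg
Pex5l, chr3:32965737-32965797 (+): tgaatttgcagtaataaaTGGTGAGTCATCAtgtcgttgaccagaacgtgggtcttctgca
Tkt, chr14:30564593-30564653 (-): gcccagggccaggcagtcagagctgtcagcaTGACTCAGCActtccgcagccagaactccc
Blvra, chr2:127077775-127077835 (-): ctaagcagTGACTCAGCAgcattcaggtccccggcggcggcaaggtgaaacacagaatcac
Fgf4, chr7:144857353-144857413 (+): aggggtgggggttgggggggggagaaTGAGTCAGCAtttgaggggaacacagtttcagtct

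The exact palindrome TGCTGACTCAGCA, which reads the same on both strands apart from its central base, was in the sequences at Gin1, Rhoh, Gpr137c and Fbxo34. Those at Kazn, Plekha3, Hmgb4, Tkt, Blvra and Fgf4 held the composite element, TGACTCAGCA or TGAGTCAGCA, in the part shown. At Plekha3 an exact palindrome also lay within 50 bp of the summit, past the right end of the part shown, and the region is counted among those with the palindrome. The sequence at Efcab2 held neither, although it was among the 4 strongest, and carried a palindrome with mismatches in its left arm.

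The highest signal of all near intronic regions was in an intron of Ppip5k2, an inositol pyrophosphate kinase gene, 1893 bp from the TSS of Gin1. The signal value, the authors' score for a region, reached 465.9 in the optimal list. In the replicates' relaxed lists it was 244.0 for replicate 1 and 221.0 for replicate 2. Next was an intron of Kazn, which encodes the desmosome-associated protein kazrin, with 459.5 overall and 272.2 and 190.8 in the replicates. A region in Ttn, the gene of the muscle protein titin, 18890 bp from the TSS of Plekha3, had 432.8, with 243.3 and 191.4. Efcab2, an EF-hand protein gene, had 422.2 with 212.3 and 211.6 in its second intron, and Rhoh, a small GTPase gene of blood cells, had 414.2 with 201.5 and 215.9 in the first intron. Replicate 1 was the higher in 4 of these 5 regions and replicate 2 in Rhoh.

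Over the 25 strongest near intronic regions found in both replicates' lists, the signal value ran from 299.2 to 465.9 (137.3 to 272.2 in replicate 1 and 125.6 to 221.0 in replicate 2). Replicate 1 was the higher in 17 of the 25. They included introns of Rara, a retinoic acid receptor gene (335.6), Nsd1, a histone H3K36 methyltransferase gene (303.8), Smarcc1, a BAF chromatin remodelling subunit gene (300.4), Grb10, an imprinted growth adaptor gene (309.6), Rngtt, the mRNA capping enzyme gene (323.4), and Diaph1, an actin-nucleating formin gene (314.4). Of the 25, 8 held the palindrome, 11 the composite element without it, 4 the ARE core but no composite element, 1 the MAF core without the ARE core, and 1, at Diaph1, no exact MAF element. Other names were Dym, Gpr137c, Ccbe1, Hmgb4, Fbxo34, Manba, Bicdl1, Trim63, Snx9, Prim2, 9430069I07Rik, Map3k1 and Syne2. The region named for Hmgb4 was in Csmd2 and that for 9430069I07Rik in Matn2.

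Signal values of all 3183 regions had a median of 29.0 in the optimal list (interquartile range 19.5 to 49.9), and reached down to 3.97. In the relaxed lists the median was 14.02 over the 3153 regions found in replicate 1 and 15.3 over the 3152 found in replicate 2. Both relaxed lists held 3122 of the regions, over which Spearman's rho between the replicates was 0.71 and Pearson's r of log2 signal 0.77, as a description across regions, which share both libraries. Of the 3183, 1156 (36.3%) overlapped the thresholded lists of both replicates, close to the 35.4% of all optimal regions. Another 268 overlapped that of replicate 1 only, 577 that of replicate 2 only, and 1182 (37.1%) neither. The same rule applied to each replicate's own thresholded list found 1461 and 1825 regions in replicates 1 and 2.

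Signal differed between near intronic regions and other locations by less than the tests could call. The 3 comparison classes each differed from them in a single term of the rule. Deep intronic regions lay more than 20 kb from a protein-coding TSS (2614), near intergenic ones outside gene bodies (1812) and masked intronic ones on a repeat-masked base (769). Median signal was 28.4, 28.2 and 28.0 in these classes. A near intronic region exceeded a region of the class in 50.3%, 50.3% and 50.5% of pairs (permutation test of mean ranks, two-sided, adjusted p = 0.767 for each). The share found in both replicates' lists was 36.3%, 36.5% and 39.3% in the classes. The odds ratios of near intronic regions against them were 1.00 (0.90 to 1.12), 0.99 (0.88 to 1.12) and 0.88 (0.75 to 1.04; Fisher's exact test, adjusted p = 0.978, 0.978 and 0.402).

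MAF-type elements marked the summits. The composite element was within 50 bp of the summit in 852 of 3183 regions (26.8%, 95% Wilson interval 25.3 to 28.3) and in 5 of 6366 equally wide flanking windows, whose centres lay 1000 bp away (0.0785%; odds ratio 465, 193 to 1121, Fisher's exact test, adjusted p at the floor of 1e-300). Its size varied with the setting: the odds ratio was 282 and 287 in the lists of replicates 1 and 2 alone, 221 with windows of 100 bp, 775 with flanks at 2000 bp and 64.3 with 1 mismatch allowed, all past the threshold. The exact palindrome was at 74 summits and in 0 flanking windows (exact test, adjusted p = 9.15e-36). The palindrome with up to 2 mismatches was at 40.7% against 0.408%. The MAF core marked 64.4% of summits and 7.19% of flanks. The ARE core, written TGACNNNGC or TGAGNNNGC, was at 63.3% against 7.52%. The AP-1 element TGACTCA or TGAGTCA was at 38.5% against 2.17%. These forms nest: each composite element holds the MAF core, the ARE core and the AP-1 element, and each palindrome holds composite elements. At least 1 of the composite element, the ARE core and the MAF core was present in 2629 regions (82.6%). The C-MARE, a MAF palindrome with a longer centre than the T-MARE, was searched apart. With up to 2 mismatches it was at 41 summits (1.29%) and in 5 flanking windows (0.0785%; odds ratio 16.6, adjusted exact p = 1.30e-14). Its exact form was at 0 summits. Elsewhere the palindrome means the T-MARE. All searches covered both strands.

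Each replicate's own regions gave the same picture at higher shares. The composite share was 36.8% and 32.1% in replicates 1 and 2 (34.4% ± 3.32, SD, n = 2) against 0.185% ± 0.029 in their flanks. The MAF core share was 73.0% and 68.2% (70.6% ± 3.40), and the palindrome with up to 2 mismatches had 52.6% and 46.0% (49.3% ± 4.71). In each case the gap to the flanks was many times the spread between the replicates.

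**Figure D1:**
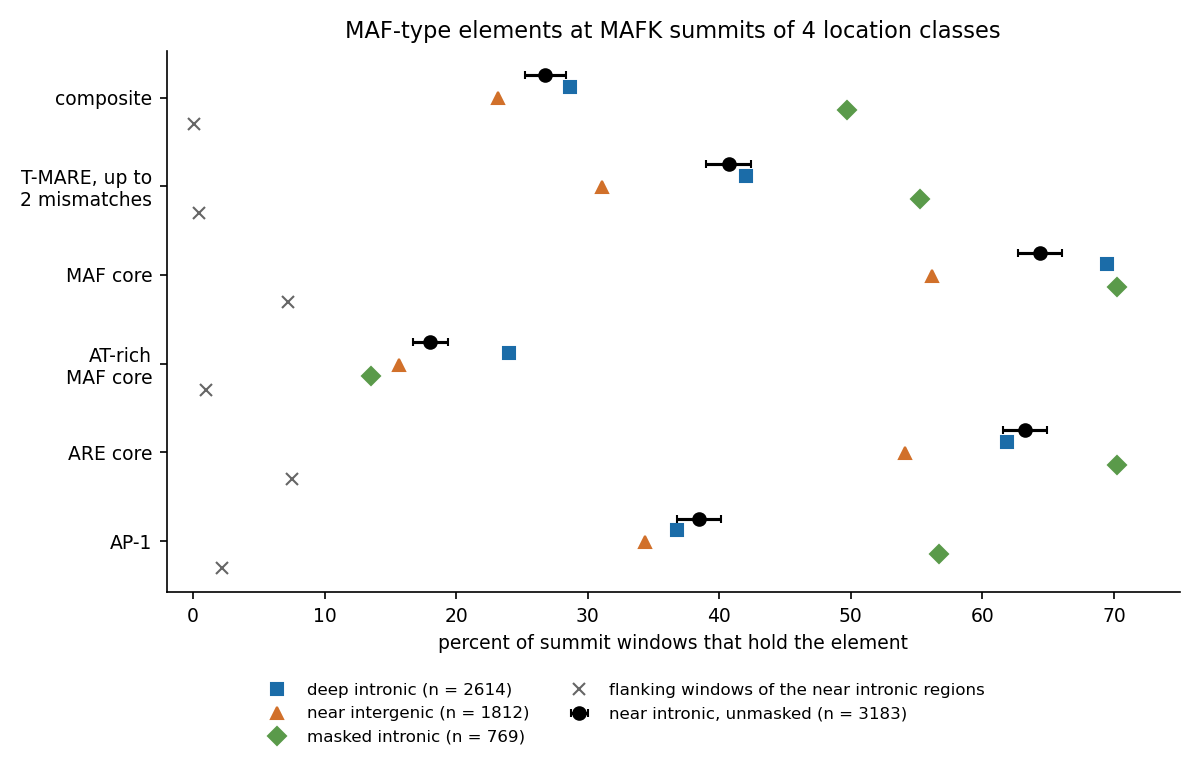
Percent of windows of 50 bp to either side of the summit that hold each element (x axis), for near intronic regions (black circles with 95% Wilson intervals), the 3 comparison classes (coloured symbols) and the flanking windows of the near intronic regions (crosses). All classes lie far to the right of the flanks; the near intronic composite share of 26.8% lies between the near intergenic 23.2% and the masked intronic 49.7%.

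Apart from the AP-1 element, at 38.5% of summits, elements of other factors were rare there. The SOX-OCT composite, an element bound jointly by SOX2 and OCT4 in stem cells, was at 2.51% of summits against 1.32% of flanks with up to 2 mismatches (odds ratio 1.93, adjusted exact p = 8.71e-05), and the CTCF core, the motif of an architectural zinc finger factor, at 2.54% against 0.880% (odds ratio 2.94, adjusted p = 1.64e-09). Elements of the KLF type (GGGTGTGGC, 0.440% against 0.0943%), TEAD type (ACATTCCA, 1.01% against 0.487%) and CREB type (TGACGTCA, 0.251% against 0.0471%) also passed, with adjusted exact p of 0.00244, 0.00869 and 0.0156. The CREB type sequence can also form the centre of a C-MARE, and this overlap was not counted. The SOX-OCT and KLF calls were lost in the list of replicate 2 alone (exact test, adjusted p = 0.239 and 0.633), the TEAD call in the conservative list (0.132), the stronger 50% of regions (0.111) and windows of 25 bp (0.0799), and the CREB call in the stronger 50% of regions (0.164), windows of 100 bp (0.143) and with flanks at 2000 bp (0.0702). The KLF call was also lost with windows of 25 bp (0.456) and flanks at 2000 bp (0.111). The shuffled control GTTCAG was at 5.62% against 5.29% and did not pass (odds ratio 1.07, adjusted exact p = 0.641), but passed in the list of replicate 2 alone with an odds ratio of 1.35 (adjusted exact p = 0.0281) and with windows of 100 bp with 1.18 (0.0240).

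The element sat near the summit. In the 890 regions with a composite element within 300 bp, the nearest was at a median of 11.5 bp, and 84.0% had it within 25 bp. For the exact palindrome the median was 9 bp over 74 regions, and 94.6% were within 25 bp. The MAF core, a shorter sequence, had a median of 13.5 bp over 2503 regions with 69.4% within 25 bp.

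**Figure D2:**
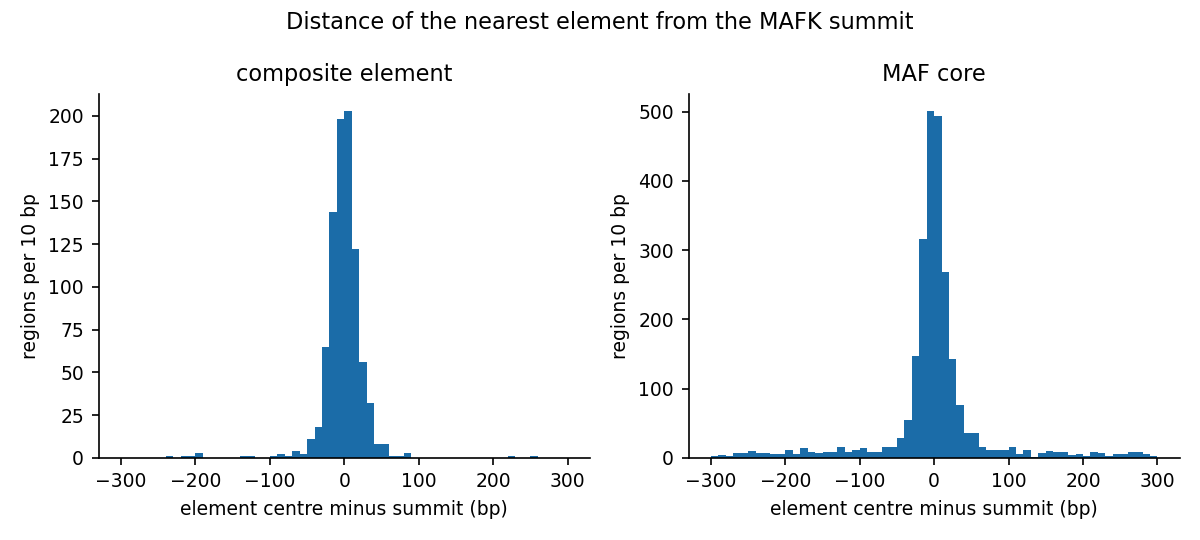
Number of near intronic regions per 10 bp (y axis) by the distance in bp from the summit to the centre of the nearest composite element (left) or MAF core (right). Both distributions peak at the summit, and the MAF core has a low even level on either side where the composite element has almost none.

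Near intronic regions differed from the other locations in a few elements. The composite share was 28.6% in deep intronic regions, a difference that did not pass the test (odds ratio 0.91, 0.81 to 1.02, Fisher's exact test, adjusted p = 0.331 over the 69 tests of families and classes). Nor did the exact palindrome (2.32% against 3.40%, odds ratio 0.68, 0.49 to 0.92, adjusted exact p = 0.0594). The palindrome difference passed in the list of replicate 2 alone (odds ratio 0.55, adjusted exact p = 0.00436), the conservative list (0.66, 0.0438) and the stronger 50% of regions (0.63, 0.0246). In the list of replicate 1 alone it did not (0.66, 0.0592). The MAF core was less frequent in near than in deep intronic regions (64.4% against 69.4%, odds ratio 0.80, adjusted exact p = 4.76e-04). So was the MAF core preceded by 3 bases that are each A or T (17.97% against 24.02%, odds ratio 0.69, 0.61 to 0.79, adjusted exact p = 1.66e-07), and the mean GC content of the summit windows was 47.2% in near and 45.3% in deep intronic regions. The part of base composition in this difference was not tested. In the list of replicate 1 alone the MAF core difference had the same odds ratio of 0.80 but did not pass (adjusted exact p = 0.0566). The C-MARE with up to 2 mismatches was also less frequent in near intronic regions (1.29% against 2.22%, odds ratio 0.58, adjusted exact p = 0.0318). That call was lost in the list of replicate 2 alone (0.64, 0.230).

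Against near intergenic regions several MAF-type elements were more frequent in near intronic ones. The palindrome with up to 2 mismatches was at 40.7% against 31.1% (odds ratio 1.52, 1.35 to 1.72, adjusted exact p = 1.85e-10), the ARE core at 63.3% against 54.1% (odds ratio 1.46, adjusted p = 3.82e-09) and the MAF core at 64.4% against 56.2% (odds ratio 1.41, adjusted p = 1.25e-07). The composite element was at 26.8% against 23.2% (odds ratio 1.21, adjusted exact p = 0.0233), a call lost with windows of 25 bp (odds ratio 1.18, adjusted exact p = 0.0907) and with an upper limit of 10 kb (1.19, 0.152). The exact palindrome (2.32% against 2.10%, odds ratio 1.11, adjusted exact p = 0.928) and the MAF core preceded by 3 bases that are each A or T (17.97% against 15.6%, 1.18, 0.120) did not pass. The CTCF core was less frequent (2.54% against 4.42%, odds ratio 0.57, adjusted exact p = 0.00302). That call was lost in the list of replicate 2 alone (odds ratio 0.82, adjusted exact p = 0.772), the conservative list (0.66, 0.0507), the stronger 50% of regions (0.60, 0.157) and with an upper limit of 10 kb (0.67, 0.163).

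Masked intronic regions had the composite element nearly as often as not (49.7%), which near intronic ones had in 26.8% (odds ratio 0.37, 0.32 to 0.44, adjusted exact p = 4.45e-31). The AP-1 element showed the same order (38.5% against 56.7%, odds ratio 0.48, adjusted exact p = 2.35e-18). The exact palindrome went the other way, with 74 of 3183 (2.32%) against 5 of 769 (0.650%; odds ratio 3.64, 1.47 to 9.03, adjusted exact p = 0.00894), and this call was lost in the list of replicate 2 alone (odds ratio 2.05, adjusted exact p = 0.162), with an upper limit of 10 kb (3.94, 0.0545) and with a lower limit of 2 kb (2.94, 0.0623).

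Signal went with the form of the element at the summit. The 74 regions with the palindrome had a median signal of 104.0 (17.04 to 465.9), with medians of 50.4 in replicate 1 and 53.6 in replicate 2. Those with a composite element but no palindrome (778) had 37.9, with 18.3 and 19.97 in the replicates. The ARE core without a composite element (1162) had 29.8, the MAF core only (615) had 26.1, and regions with none of these (554) had 20.3. In the replicates these last 3 medians were 14.3, 13.03 and 10.04 in replicate 1 and 15.8, 13.6 and 11.4 in replicate 2, in the same order. A region with the palindrome exceeded one without MAF element in 93.6% of pairs and one with a composite element only in 78.0% (permutation test of mean ranks, two-sided, adjusted p = 1e-05 for each, the smallest that 100000 permutations can give). The ARE core and MAF core groups exceeded regions without an element in 69.1% and 63.6% of pairs, at the same smallest p. The ranges overlapped throughout: the lowest region with a palindrome had 17.04 and the highest without any exact MAF element, at Diaph1, had 314.4.

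**Figure D3:**
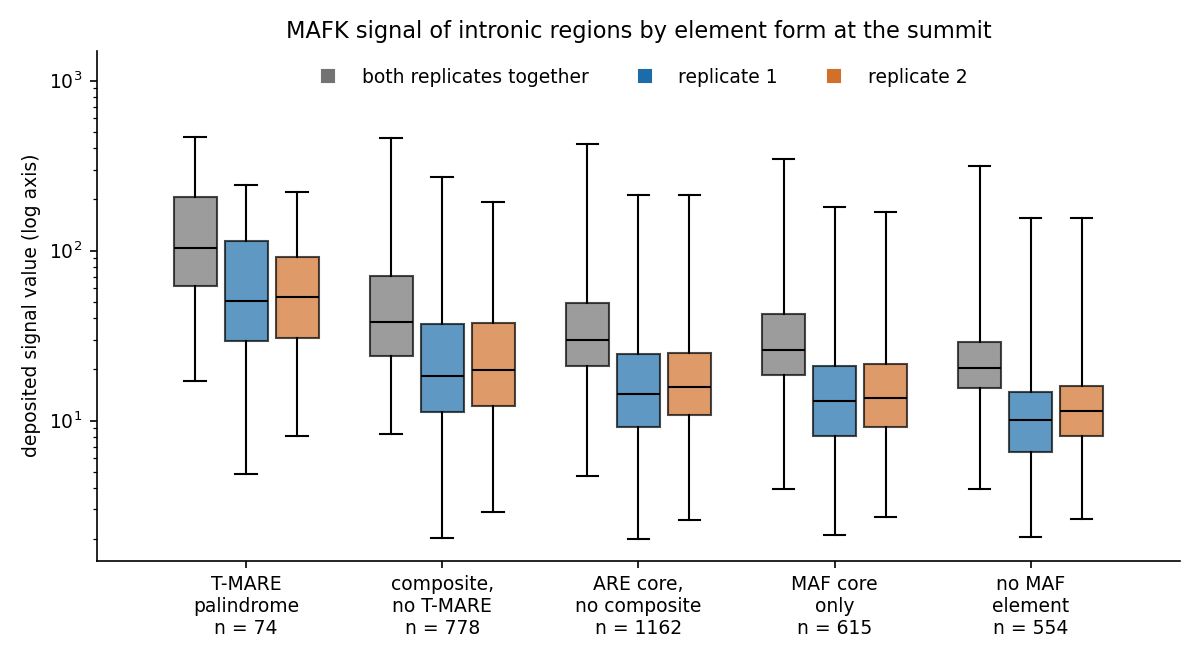
Deposited signal value (log axis) of near intronic regions by element form at the summit, in the list of both replicates together (grey), replicate 1 (blue) and replicate 2 (orange); boxes span the quartiles with the median as a line, and whiskers reach the lowest and highest region. The median falls from the palindrome (104.0) to regions without a MAF element (20.3) in the joint list, and in the same order in each replicate.

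Presence in both replicates' thresholded lists followed the same order. It held for 63 of 74 palindrome regions (85.1%), 51.5% of those with a composite element only, 36.0% with the ARE core but no composite element, 29.6% with the MAF core only, and 92 of 554 (16.6%) without an element. Split by signal instead, 361 of the strongest 795 regions (45.4%) and 110 of the weakest 795 (13.8%) held the composite element (odds ratio 5.18, 4.05 to 6.62, Fisher's exact p = 1.52e-44). That odds ratio was 3.33 and 4.24 in the lists of replicates 1 and 2 alone.

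Nearly every palindrome in the searched sequence lay in a MAFK region. The 320.5 Mb of unmasked intron sequence that the location rule admits held 80 exact palindromes, and 78 of them (97.5%, 91.3 to 99.3) lay inside a region of the optimal list. Of the 3203 composite elements outside a palindrome, 760 (23.7%) did (odds ratio 125, 30.7 to 511, Fisher's exact test, adjusted p = 2.56e-44). The odds ratio was 31.0 in the list of replicate 1 alone and 29.0 in that of replicate 2 alone. In these lists, 85.0% and 86.3% of palindromes were occupied (85.6% ± 0.884, SD, n = 2), against 15.5% and 17.8% of the other composite elements. The 2 palindromes without an optimal region were near Ndrg2 (chr14:51907419-51907431) and Syt12 (chr19:4454964-4454976). Both lay in relaxed regions of both replicates, with a signal of 3.72 and 5.58 near Ndrg2 and of 3.92 and 15.5 near Syt12. The relaxed lists also hold background. Composite elements outside palindromes lay in relaxed regions of both replicates in 27.0% to 56.2% of cases, depending on their mismatches to the palindrome.

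Occupancy of a composite element varied with the bases around it. Its right arm is fixed, its central base is C or G, and the 3 bases before it complete the palindrome when they are TGC. With 1 mismatch in these 3 bases 251 of 593 elements were occupied (42.3%), with 2 mismatches 282 of 1313 (21.5%), and with 3 mismatches 227 of 1297 (17.5%). The step from 3 mismatches to 1 held (odds ratio 3.46, 2.78 to 4.30, Fisher's exact test, adjusted p = 7.74e-29), with 10.6% and 32.4% by replicate 1's regions and 13.9% and 33.4% by those of replicate 2. The step from 3 to 2 mismatches was small (odds ratio 1.29, adjusted exact p = 0.0117) and did not pass in the list of either replicate (odds ratios 1.21 and 1.06). Elements with the central base C, in TGACTCAGCA, were occupied more often than those with G (27.7% of 1782 against 18.8% of 1421, odds ratio 1.65, 1.40 to 1.96, adjusted exact p = 5.97e-09).

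The base directly before the composite element went with a wider range of occupancy than the count of mismatches from 1 to 3. It was A in 801 elements outside palindromes, of which 299 (37.3%) were occupied, C in 1004 (28.7%), G in 842 (17.5%) and T in 556, of which 26 (4.68%, 3.21 to 6.76) were occupied. In replicate 1 the shares were 24.7%, 19.4%, 10.6% and 2.34%, and in replicate 2 they were 27.5%, 20.6%, 14.7% and 3.42%, in the same order. Each of the 6 pairs of bases differed (Fisher's exact test, adjusted p from 8.55e-50 for A against T, with an odds ratio of 12.1, to 1.20e-04 for A against C, with 1.48). Every palindrome has C at this position, and 78 of 80 were occupied, so leaving palindromes out lowers the C share only. A against C was not tested with palindromes included. The split by this base and the next splits were picked with the data in view. Among the elements with 1 mismatch, 62.9% were occupied when it was in the first of the 3 bases (124 of 197), 20.5% when it was in the second (45 of 220) and 46.6% when it was in the third (82 of 176). All 3 pairs differed (exact test, adjusted p = 1.41e-18, 0.00176 and 6.72e-08).

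These sequences of 13 bp show the contrast. They share the same last 10 bases, capitals mark the 3 bases before them, and each occurred at least 20 times in the searched sequence. They were picked for their occupancy, and no test was made between them.
TGC palindrome, 78 of 80 occupied: TGCtgactcagca
TGA variant, 38 of 46 occupied: TGAtgactcagca
GCA variant, 23 of 29 occupied: GCAtgactcagca
CCT variant, 0 of 21 occupied: CCTtgactcagca
CTT variant, 0 of 26 occupied: CTTtgactcagca
The GCA variant matches none of the 3 bases of the palindrome and was occupied at 14 of its 29 sites by replicate 1's regions and at 21 by replicate 2's. Of the 81 kinds of sequence that occurred at least 20 times, 9 were occupied at none of their sites, 240 in all.

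The bases after the element also went with occupancy. With no A or T among the 3 bases that follow TGACTCAGCA or TGAGTCAGCA, 21 of 248 elements (8.47%) were occupied. With 1, 2 and 3 such bases the shares were 17.2% of 1255, 28.1% of 1318 and 40.1% of 382. The ends of this range differed (odds ratio 7.22, 4.42 to 11.8, Fisher's exact p = 1.10e-19), and occupancy by replicate 1's regions went from 5.24% to 28.0% and by replicate 2's from 8.47% to 27.5%. Wider windows, 50 bp to either side of the element, went the other way, with a median GC content of 49.5% around occupied and 47.5% around unoccupied elements.

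**Figure D4:**
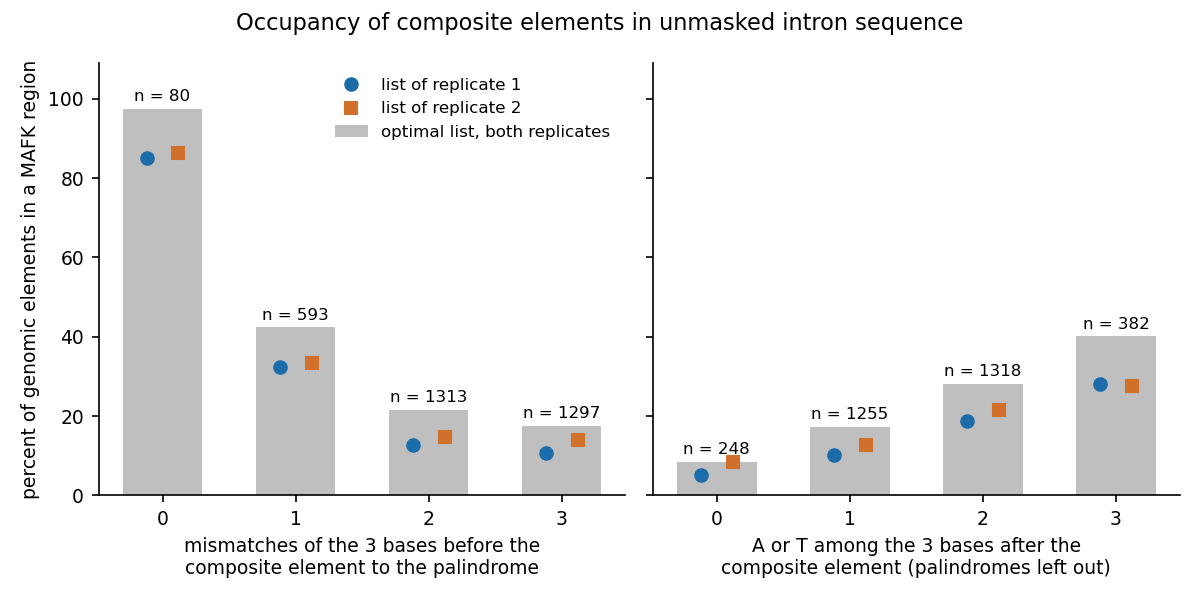
Percent of composite elements in unmasked near intronic sequence that lay in a MAFK region (y axis), by the mismatches of the 3 preceding bases to the palindrome (left) and by the number of A or T among the 3 following bases, palindromes left out (right). Bars are the optimal list, circles and squares the lists of replicates 1 and 2, and n counts elements; the bars run from 97.5% down to 17.5% on the left and from 8.47% up to 40.1% on the right.

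A composite element was occupied slightly more often in near intronic than in deep intronic sequence. Outside palindromes the shares were 23.7% of 3203 and 20.5% of 3369 (odds ratio 1.21, 1.07 to 1.35, Fisher's exact test, adjusted p = 0.00534), with odds ratios of 1.31 and 1.40 in the lists of replicates 1 and 2. Near intergenic elements had 24.3% of 1551, a difference that did not pass (odds ratio 0.97, 0.84 to 1.12, adjusted exact p = 0.995). Masked intronic elements had 35.7% of 1368 (odds ratio 0.56, 0.49 to 0.64, adjusted exact p = 1.69e-15). Palindromes were occupied at 99 of 100 deep intronic and 36 of 37 near intergenic sites.

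Some short sequences were enriched at the summits of the 554 regions without an exact MAF element. Of 2080 sequences of 6 bp, 18 (0.865%) were enriched at their summits over their own flanks at an adjusted p under 0.01, and 260 in all differed at an unadjusted p under 0.05. Those of smallest p were GAGTCA (17.3% of summits against 4.42% of flanks, odds ratio 4.53, Fisher's exact test, adjusted p = 5.59e-14), AGTCAT (14.6% against 4.96%, odds ratio 3.28, adjusted p = 4.91e-08) and GACTCA (16.6% against 6.68%, odds ratio 2.78, adjusted p = 3.65e-07). GAGTCA and GACTCA are part of the AP-1 element. TCATCA (14.1% against 5.32%), CGCTGA (6.68% against 1.26%), TAAGCA (13.5% against 5.23%) and TGCAAA (12.5% against 4.87%) followed, with adjusted exact p from 1.63e-06 to 2.14e-05. CGCTGA differs from the MAF core in its first base. The sequence TCAGCA was at 0 summits by construction, since it is the MAF core on the other strand. The region at Pex5l, the gene of a peroxisomal import receptor relative, has both GAGTCA and TCATCA inside its marked palindrome with mismatches (signal 166.6, 77.0 and 89.1 in the replicates). The count of enriched sequences fell to 10 with replicate 2's own regions, 3 with replicate 1's and 1 in the stronger 50% of regions, in which fewer regions were tested.

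Near intronic regions were spread over the whole distance range. From the TSS outward, 418 lay at 1 to 2 kb, 860 at 2 to 5 kb, 863 at 5 to 10 kb and 1042 at 10 to 20 kb. Per Mb of searched sequence these were 11.5 (95% Poisson interval 10.4 to 12.6), 10.4 (9.72 to 11.1), 9.40 (8.78 to 10.05) and 9.51 (8.94 to 10.1). The composite share was 23.4%, 25.7%, 29.3% and 26.9%, with overlapping intervals between neighbours. Median signal stayed between 28.2 and 29.5. Over the whole range the density was 9.93 per Mb against 6.79 in deep intronic sequence (ratio 1.46, exact binomial test, adjusted p = 6.54e-47) and 11.9 in near intergenic sequence (ratio 0.83, adjusted exact p = 4.63e-10). How much of each kind of sequence could be mapped by reads was not tested.

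**Figure D5:**
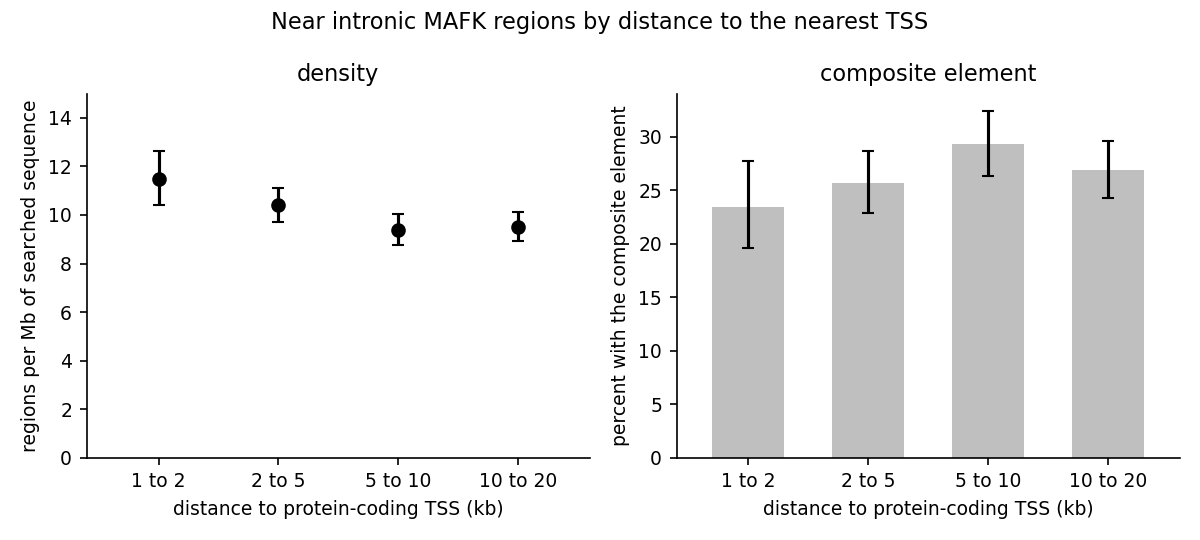
Near intronic MAFK regions by distance in kb to the nearest protein-coding TSS (x axis): regions per Mb of searched sequence with 95% Poisson intervals (left) and percent with the composite element with 95% Wilson intervals (right). Density is 11.5 per Mb at 1 to 2 kb and 9.51 at 10 to 20 kb, and the composite share stays between 23.4% and 29.3%.

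At the limits of the rule, the nearest regions inside were at Specc1l (1001 bp from a TSS, signal 67.2) and Tnrc18 (1004 bp, 16.5). The nearest outside were at Cd36 (1000 bp, 44.4) and Lpcat1 (1000 bp, 30.7). At the outer limit Map2k6 (19991 bp, 13.9) and Ccdc88c (19974 bp, 125.6) were inside, and Pde4d (20009 bp, 17.1) and Srpk2 (20019 bp, 21.2) outside.

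Distances ran to either side of a TSS: 1968 of 3183 regions (61.8%) were downstream of the nearest protein-coding TSS and the rest upstream. The gene with the nearest protein-coding TSS was itself the host in 2824 regions (88.7%), and in these the intron could be numbered. The first intron held 1422 (50.4%), the second 526 (18.6%) and later ones 876 (31.0%). The share of first introns in the searched sequence was not counted, so these shares do not show a preference for the first intron. The composite element was in 24.7% of regions of the first and 28.2% of those of later introns (odds ratio 0.84, 0.71 to 0.99, Fisher's exact p = 0.0365). Among the regions of replicate 1's own list it was not past the threshold (odds ratio 0.84, exact p = 0.149), and among those of replicate 2's it turned (1.04, exact p = 0.749). Median signal was 28.0 in the first and 29.8 in later introns (a first-intron region exceeded a later one in 48.6% of pairs, permutation p = 0.208). Outside palindromes, where a direction could be assigned, the composite element read along the strand of the host gene in 339 of 726 regions (46.7%, 43.1 to 50.3, exact binomial p = 0.0810).

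Of 21728 protein-coding genes, 2728 (12.6%) had a near intronic region, as host or as nearest TSS. Of these, 2183 had 1, 427 had 2 and 118 had 3 or more. Fgfr2, a fibroblast growth factor receptor gene, had 9, with signals from 15.5 to 110.9. Of these 9, 4 held the composite element and 1 was in both replicates' thresholded lists. Btbd9, Ccdc88c, Dst and Pde4d had 6 each, of which 3, 3, 2 and 1 were in both lists. Gm20388, an annotated gene that shares regions with Gse1, had 16, of which 6 were in both lists. The intron length and the number of TSSs of a gene were not taken into account here or in the lists that follow, and a region beside a gene is no proof of its regulation. The shares of these lists were not tested against the 12.6% of all genes.

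Antioxidant and detoxification genes had a near intronic region in 10 of 37 (27.0%), beside 12.6% of all genes. The 14 regions had a median signal of 35.8, 4 held the composite element and 7 were in both replicates' lists. The strongest was in the second intron of Tkt, the transketolase gene of the pentose phosphate pathway, at chr14:30564502-30564737, with a signal of 172.2 (64.2 in replicate 1 and 107.8 in replicate 2). It lay 3376 bp upstream of the nearest TSS of Tkt, in a transcript that starts further away. Next came a region 19696 bp from the TSS of Txnrd1, a thioredoxin reductase gene, in the neighbouring gene 1700028I16Rik (99.9, with 38.9 and 60.0). A region in an intron of Me1, the NADPH-producing malic enzyme gene, followed (92.4, with 49.4 and 42.1). Its nearest protein-coding TSS, 15167 bp away, was that of Rwdd2a. The first intron of Cat, the catalase gene, had 77.6, with 37.9 and 38.2. All 4 were in both replicates' lists, and those at Tkt and Me1 held the composite element, while those at Txnrd1 and Cat held the ARE core but no composite element. Weaker regions were at Gstm3, Slc7a11, Ephx1, Abcc1, Gsta4 and Gss.

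The strongest of the small MAF, CNC and KEAP1 genes was Bach1, a heme-regulated repressor that pairs with small MAF proteins. Regions lay at 2 of these 10 genes (20%), beside 12.6% of all genes. Bach1 had 2 regions in its first intron, 1122 and 14172 bp from the TSS, with signals of 145.3 (64.5 and 83.0 in the replicates) and 96.0 (40.8 and 55.3). Both held the composite element and were in both replicates' lists. Its relative Bach2 had 3, with 30.8, 19.1 and 16.9, and none of them overlapped either replicate's thresholded list.

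Heme and iron genes had a region in 5 of 25 (20%), beside 12.6% of all genes. Blvra, the gene of biliverdin reductase, which acts after heme oxygenase, led with 86.3 (32.6 and 54.0) and held the composite element at the edge of the window shown. It was followed by Slc11a2, an iron transporter gene (35.8), and Ireb2, an iron sensor gene (23.5 and 12.7). The region in Slc11a2 lay 4096 bp from its nearest protein-coding TSS, that of Gm5475. The regions at Hmox2 (12.0) and Flvcr1 (11.4), and the weaker one at Ireb2, were in neither replicate's list. Of the 6 regions, 2 were in both lists.

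Among pluripotency genes, 5 of 25 (20%) had a region, beside 12.6% of all genes. In Fgf4, the stem cell growth factor gene, a region 4003 bp upstream of the nearest TSS of the gene had 133.2 (52.5 and 78.4) and the composite element. It lay in the first intron of another transcript of Fgf4 that starts further away. In Esrrb, which encodes a nuclear receptor active in naive cells, a region in the third intron had 87.8 (49.3 and 41.4) with the exact palindrome, and 2 others had 29.3 and 22.7 without an exact MAF element. Tet1, a DNA demethylation enzyme gene, had 39.0 (18.7 and 21.3), with the composite element. The regions at Tfcp2l1 (22.4) and Lifr (20.2 and 16.2), and the 2 weaker ones at Esrrb, were in neither replicate's thresholded list. Of the 8 regions, 2 were in both lists.

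Actin cytoskeleton and focal adhesion genes had a region in 15 of 36 (41.7%), beside 12.6% of all genes. Gene length was not taken into account. The 23 regions had a median signal of 26.3, 5 held the composite element and 8 were in both replicates' lists. The strongest were at Diaph1 (314.4), Rock2, a kinase gene of the actin cytoskeleton (168.0, with 92.8 and 76.9), Myh9, a non-muscle myosin gene with the palindrome (136.0, with 64.9 and 68.2), and Zyx, the gene of the adhesion protein zyxin (92.0, with 50.1 and 39.4). Proteasome subunit genes had a region in 3 of 31 (9.68%), at Psmc1 (49.5), Psma5 (39.6) and Psmd1 (14.8). Autophagy and lysosome genes had 3 of 27 (11.1%), led by Ulk1, an autophagy-initiating kinase gene (145.5, with 74.4 and 70.2), and Ctsb, the cathepsin B gene (79.9).

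Mesendoderm transcription factor genes had a region in 3 of 16 (18.8%), beside 12.6% of all genes. The signals were 86.1 (28.6 and 61.0) at Hnf4a, 19.5 at Foxa2 and 19.3 at Gata4. Neuroectoderm genes had 2 of 14 (14.3%), at Pou3f1 (44.3 and 31.8) and Map2 (28.1). In the list of large MAF and AP-1 genes 1 of 18 (5.56%) had a region, at Jdp2, a JUN dimerisation partner (96.1, with 46.0 and 48.7). Of the erythroid genes 1 of 18 had a region, at the anion exchanger gene Slc4a1 (49.0), and of the 16 housekeeping genes 0.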

How the data were processed

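MAFK ChIP-seq in ES-E14 cells was analysed from region lists on mm10, 2 replicates of 1 group. Aligner and peak caller: not given in the sources used here. As the deposited text notes say, a first run made relaxed lists per replicate and pooled, and from them the optimal and the conservative list (16082 regions) by irreproducible discovery rate. A second run made the thresholded list of each replicate, so comparing these with the optimal list crosses both runs. The deposited signal value is a score of unstated scale and was used to rank and describe regions. Other columns are a deposited −log10 q-value and a deposited scaled IDR score, neither of which entered a test. The authors' relaxed lists gave replicate values by the strongest overlapping region (at least 1 bp). Summits came from the deposited offset, and coordinates are 1-based.

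Sequence and soft-masking were read from the GRCm38 reference, whose masking may differ slightly from that of mm10, and genes from GENCODE vM21. The members and lists were chosen with earlier results of these data known. Elements of 23 families, 2 of them controls, were searched within 50 bp of each summit and in flanks centred 1000 bp away. Shares were compared with Fisher's exact test, signal with a permutation test of mean ranks (100000 permutations), direction and density with exact binomial tests, two-sided, with Benjamini-Hochberg adjustment. Odds ratios carry 95% intervals on the log scale, with 0.5 added to each count where a count is 0. Regions are not independent replicates, so a p-value describes these lists, and intervals cover counting error only. An element was occupied when it lay wholly inside a region. Intron numbers came from the transcript of the nearest-TSS gene whose own start was closest.

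Regions named are the 25 strongest found in both replicates' lists, up to 4 by signal for each of 12 gene lists, all at small MAF, CNC and KEAP1 genes, those nearest the distance limits, and the 6 bp sequences of smallest p. One of the 25 is not reported here by name. Alternatives were each replicate's list alone, the conservative list, the stronger 50%, other windows, flanks and distance limits, and reciprocal overlap. The tests recovered 4 of 4 elements put into simulated windows. The rarer KLF, TEAD and CREB types were not among them, so their calls were not checked in this way. Analyses used Python, numpy, pandas, scipy and numba. Depth is unknown.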

Additional observations from a re-analysis of the deposited data

How the results depend on the processing

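Of 699 values recomputed under 13 alternative settings, 629 were counted as unchanged. A test value counted so if it kept its side of the threshold, and its direction where either value passed. A turn of direction between 2 values that did not pass was not counted as a change. A count of sequences was unchanged if it stayed within 1.5 times. The lower composite share of the first intron was the least stable result: its odds ratio was 0.84 in the optimal list, 0.841 to 1.04 in the list of a single replicate (the upper value, without replicate 1, turned the direction), 0.932 in the stronger 50% of regions, 0.859 with windows of 25 bp and 0.909 with an upper limit of 10 kb. The odds ratio of the composite share against near intergenic regions was 1.18 with windows of 25 bp and 1.19 with the upper limit of 10 kb, neither past the threshold. With that limit the share of composite elements on the host strand was 44.8%, which passed (exact binomial p = 0.0237). The occupancy odds ratio of 2 against 3 left mismatches was 1.06 to 1.21 in the lists of single replicates and did not pass. The sequences of 6 bp enriched at regions without a MAF element numbered 18 in the optimal list, 3 to 10 in the lists of single replicates and 1 in the stronger 50%. Those depleted numbered 6, against 1 to 2, 0 in the stronger 50% and 2 with flanks at 2000 bp. The causes were not tested, but each of these lists and the stronger 50% holds fewer regions. The occupancy of composite elements in the other location classes was an added comparison, chosen after the data had been seen, and its calls were the same in the list of each replicate and in the conservative list. No paired analysis was possible because the study has a single group. Signal of the replicates comes from region lists, so no limit of detection from read depth can be given.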
